A study of Mus musculus with 8 samples.

Results

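The enzymes described here supply NADPH from the pentose phosphate pathway and from its cytosolic neighbours. They are G6pdx, Pgls and Pgd of the oxidative branch, Taldo1 and Tkt of the non-oxidative branch, and the NADP-linked enzymes Me1 and Idh1. These 7 genes were taken by symbol from a deposited table of 12339 genes, and each had 1 row. The RNA was captured with RiboTag, a method that tags ribosomes in the cells that express Cre, from retinas of mice in oxygen-induced retinopathy (OIR) at postnatal day 14. OIR is a model in which pups are moved from high oxygen to room air and the inner retina becomes short of oxygen. The groups were 4 wild-type libraries (WT) and 4 libraries with the genotype Muller-specific Nrf2 cKO, called cKO below, and both groups went through OIR. The same replicate numbers, 1, 3, 4 and 5, occur in both groups. The strain, sex, Cre driver, deleted exon and number of animals per library are not given in the sources used here, so p-values measure the spread between these libraries, which may be technical.

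The pentose phosphate pathway branches from glycolysis at glucose 6-phosphate. Its oxidative branch reduces NADP to NADPH, and its non-oxidative branch returns the pentose to glycolysis or makes ribose for nucleotides. NADPH keeps glutathione and thioredoxin reduced and drives the synthesis of lipids and the reduction of retinoids. Müller cells are the glia that span the retina. They hold much of the glutathione of this tissue and handle glucose for the neurons. Nrf2, encoded by Nfe2l2, is a transcription factor that in other tissues is known to activate genes of this group. It binds the antioxidant response element together with a small Maf protein.

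The search for that element is shown first, because it marks the members in which Nrf2 could be looked for by sequence. The core letters TGACNNNGC were searched on both strands of RefSeq promoters (GRCm38.p6, 300 bases each, from 250 before the annotated start). All 7 members were matched, with 10 promoters between them. The letters occurred in 3 promoters, those of Me1, G6pdx and a downstream start of Pgd, that is in 3 of 7 genes. Of all 32851 promoters in that table, 12.4% held the letters, and of all 27025 genes, 13.99% did. The stretches below run from 150 bases before the start to 25 bases from it, 5′ to 3′ on the strand of the gene, with the matched letters in capitals.
Me1, chr9:86695890-86696064, minus strand: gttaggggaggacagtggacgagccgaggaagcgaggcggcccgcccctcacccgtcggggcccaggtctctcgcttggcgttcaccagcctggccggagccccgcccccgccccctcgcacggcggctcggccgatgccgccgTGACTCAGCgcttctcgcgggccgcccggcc
G6pdx, chrX:74428856-74429030, minus strand: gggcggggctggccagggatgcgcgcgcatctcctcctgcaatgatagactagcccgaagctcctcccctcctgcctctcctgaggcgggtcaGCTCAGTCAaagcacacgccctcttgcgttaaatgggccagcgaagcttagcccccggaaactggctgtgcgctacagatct
Pgd, downstream start, chr4:149166058-149166232, minus strand: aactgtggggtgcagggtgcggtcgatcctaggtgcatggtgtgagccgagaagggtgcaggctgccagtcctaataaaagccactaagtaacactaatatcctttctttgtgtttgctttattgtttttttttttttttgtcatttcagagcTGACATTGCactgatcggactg
With the start base counted as 0, the match began at −6 in Me1 and at 3 in Pgd. The Pgd match thus lies wholly after an annotated start that is inside the gene, and not in sequence before a start. The promoter of the upstream Pgd start held 0 matches. Whether the downstream start is used in these cells was not tested. In G6pdx it lay on the opposite strand between −57 and −49, where it reads TGACTGAGC. The match in Me1 overlaps the letters TGACTCA, which are also the site of AP-1 factors and occurred in 5.20% of all promoters. A match is a description of letters and not evidence of binding.

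The material was checked against its labels before the members were read. Nfe2l2 was at 17.5, 18.8, 23.1 and 17.5 FPKM in WT 1, 3, 4 and 5, and at 12.7, 16.5, 14.8 and 10.4 in cKO 1, 3, 4 and 5. All cKO values lay below all WT values (29.1% lower; p = 0.0286 in an exact permutation test, two-sided, which over 70 assignments can give no smaller value). That test ignores the replicate numbers. In a test added after seeing the data, with labels exchanged only within the 4 same-numbered pairs, 16 assignments gave an exact permutation p of 0.125, the smallest they can give, and cKO was lower in 4 of 4 pairs. FPKM summed to between 410581 and 448130 per library. All 17 Müller cell markers were measured, with summed levels of 10831 to 17787 FPKM in WT and 11054 to 15794 in cKO. The 13 rod markers summed to 4341 to 6946 FPKM in WT and 4710 to 7550 in cKO, so RNA of rods was present in all 8 libraries. Of the Müller cell markers, 7 had a higher and 10 a lower mean in cKO, with a median log2 difference of −0.096. In limma 0 Müller cell and 0 rod markers passed without the replicate number as a block. With it 2 of 17 Müller cell markers passed, both lower, and 0 rod markers, where 10.6% of all genes passed. The Müller cell genes Glul, glutamine synthetase, and Rlbp1, a retinal-binding protein, averaged 3875 ± 825 and 1462 ± 286 FPKM over WT, and 3150 ± 840 and 1325 ± 168 over cKO (SD, n = 4 each). Of 9 microglia and 7 pigment epithelium markers, 1 each was measured, and neither passed. In such bulk RNA, fewer cells of a type and less RNA per cell cannot be told apart. Xist, the RNA of the inactive X chromosome, was at 58.1, 72.1, 39.9 and 27.0 FPKM in WT 1, 3, 4 and 5. In cKO 1, 3, 4 and 5 it was at 25.01, 50.004, 0.0863 and 0.00505 FPKM. Each cKO library was thus below the WT library of its number, and Xist was near 0 in cKO 4 and cKO 5 alone. No pair is matched for Xist, least of all pairs 4 and 5. The replicate block does not remove such a difference within a pair.

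None of the 7 NADPH supply enzymes differed between cKO and WT beyond the spread between libraries. Their log2 differences, cKO minus WT, lay between −0.054 for Pgd and 0.11 for Me1, while Nfe2l2 fell by 0.50 with the replicate number as a block (limma, adjusted p = 0.0219, and 0.453 without the block). With limma and Benjamini-Hochberg adjustment over all 12339 genes, 0 of 7 members passed the threshold of 0.05, where 0% of all genes did. With the replicate block, 0 of 7 passed, where 10.6% of all genes did. At an unadjusted p under 0.05 there were again 0 members in either fit, against 10.6% of all genes without the block and 28.4% with it. The WT and cKO values overlapped in all 7 members, and groups without overlap made up 4.34% of all genes (2.06% with cKO above WT and 2.28% with cKO below). The median difference of the members was 0.053, beside 0.0036 for all genes, and their median absolute difference was 0.054, beside 0.14 for all genes. All genes include many below the level of the members, and these differences were not compared at a matched level.

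**Figure D1:**
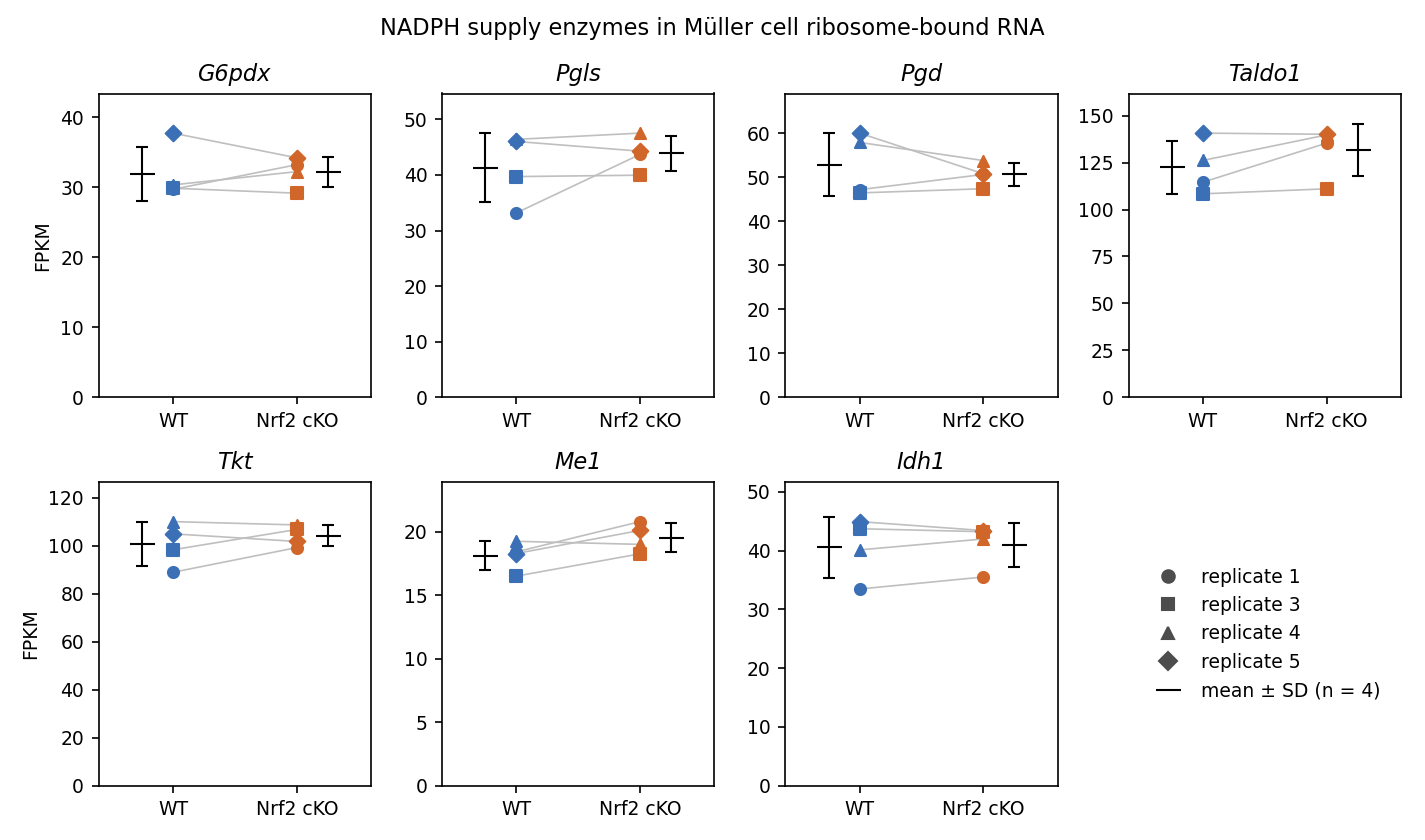
FPKM (y axes, each from 0) of the 7 members in WT (blue) and cKO (orange) libraries, with marker shapes for replicate numbers, grey lines between equal numbers and black bars for mean ± SD (n = 4). In every panel the WT and cKO points overlap, and cKO 3 is the lowest cKO library in 5 of the 7 panels.

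The oxidative branch begins with G6pdx, glucose-6-phosphate dehydrogenase, which makes the first NADPH and sets the pace of the pathway (ENSMUSG00000031400; GRCm38 chromosome X, 74409483 to 74429194, minus strand). It was at 29.7, 29.9, 30.4 and 37.8 FPKM in WT 1, 3, 4 and 5, and at 33.3, 29.2, 32.3 and 34.2 in cKO 1, 3, 4 and 5. The highest of the 8 values was WT 5 and the lowest cKO 3, so the cKO values lay inside the range of WT except for cKO 3, just below it. The means were 31.9 ± 3.90 and 32.2 ± 2.19 FPKM (SD, n = 4 each). The log2 difference was 0.018 (SE 0.10, limma adjusted p = 0.954), with a 95% interval from −0.21 to 0.25, or −13.7% to 18.7%. G6pdx is X-linked, and the Xist values differed between libraries as given above. With Xist as a covariate the difference was −0.064 (limma adjusted p = 0.9999). The gene overlaps Ikbkg on the opposite strand, and since a strand setting of the counting is not given, reads of that stretch cannot be told apart.

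Pgls, 6-phosphogluconolactonase, hydrolyses the lactone that G6pdx makes (ENSMUSG00000031807; chromosome 8, 71592176 to 71601092, plus strand). It was at 33.2, 39.7, 46.4 and 46.0 FPKM in WT and at 43.7, 40.0, 47.5 and 44.3 in cKO, in the order of replicates 1, 3, 4 and 5. WT 1 was the lowest library and cKO 4 the highest, and the other 6 values lay between 39.7 and 46.4. The difference was 0.095 (SE 0.12, limma adjusted p = 0.757; 95% interval −0.17 to 0.36). Without WT 1 it was −0.0049. Pgls overlaps Fam129c on the same strand, so reads of that stretch cannot be told apart.

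Pgd, 6-phosphogluconate dehydrogenase, makes the second NADPH of the branch while releasing carbon dioxide (ENSMUSG00000028961; chromosome 4, 149149991 to 149166771, minus strand). It was at 47.2, 46.5, 57.9 and 60.1 FPKM in WT 1, 3, 4 and 5, and at 50.7, 47.4, 53.8 and 50.8 in cKO 1, 3, 4 and 5. The WT libraries split into a lower pair (1 and 3) and a higher pair (4 and 5), and every cKO value lay between those pairs. Pgd was the only member with a lower mean in cKO, at 50.7 ± 2.62 against 52.9 ± 7.09 FPKM (SD, n = 4 each). The difference was −0.054 (SE 0.11, limma adjusted p = 0.857), with an interval from −0.29 to 0.18, or −18.3% to 13.6%.

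The non-oxidative branch held the most abundant members. Taldo1, transaldolase, moves three-carbon units between sugar phosphates (ENSMUSG00000025503; chromosome 7, 141392199 to 141402968, plus strand). It was at 115, 108, 126 and 141 FPKM in WT 1, 3, 4 and 5, and at 135, 111, 140 and 140 in cKO 1, 3, 4 and 5. The libraries numbered 3 were the lowest of their groups, and WT 5 was the highest of all. The difference was 0.10 (SE 0.12, limma adjusted p = 0.728; 95% interval −0.15 to 0.36), the highest upper bound among the members, at 28.5%.

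Tkt, transketolase, moves two-carbon units with thiamine diphosphate as its cofactor (ENSMUSG00000021957; chromosome 14, 30548359 to 30574720, plus strand). It was at 89.0, 98.4, 110 and 105 FPKM in WT 1, 3, 4 and 5, and at 99.3, 107, 109 and 102 in cKO 1, 3, 4 and 5. All 4 cKO values lay inside the WT range. The means were 101 ± 9.13 and 104 ± 4.37 FPKM (SD, n = 4 each), with a difference of 0.053 (SE 0.093, limma adjusted p = 0.834; 95% interval −0.15 to 0.26).

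Outside the pentose pathway, Me1, the cytosolic malic enzyme, makes NADPH as it turns malate into pyruvate (ENSMUSG00000032418; chromosome 9, 86581371 to 86695953, minus strand). It was at 18.4, 16.5, 19.3 and 18.3 FPKM in WT 1, 3, 4 and 5, and at 20.8, 18.3, 19.0 and 20.1 in cKO 1, 3, 4 and 5. The values of cKO 1 and cKO 5 lay above all WT libraries, and those of cKO 3 and cKO 4 lay within them. Me1 had the largest mean difference of the members, 0.11 (SE 0.089, limma adjusted p = 0.638, and 0.351 with the block), with an interval from −0.091 to 0.30, or −6.08% to 23.5%. It was also the member whose difference stayed positive in all 28 other settings, between 0.064 and 0.16. Some of these, such as the block, the eBayes variants and the other threshold, cannot change the difference, so their sign was fixed in advance. In pair 4 Me1 was slightly lower in cKO (−0.018). This gene carries the core letters at its start, as printed above. Me1 overlaps Gm38230 on the same strand and A330041J22Rik on the opposite strand, so the limit given for G6pdx holds here too.

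Idh1, the cytosolic and peroxisomal isocitrate dehydrogenase, makes NADPH and 2-oxoglutarate (ENSMUSG00000025950; chromosome 1, 65158616 to 65186500, minus strand). It was at 33.5, 43.7, 40.1 and 44.9 FPKM in WT 1, 3, 4 and 5, and at 35.5, 43.2, 42.0 and 43.4 in cKO 1, 3, 4 and 5. The libraries numbered 1 were the lowest of both groups, and the other 6 lay between 40.1 and 44.9. The difference was 0.021 (SE 0.11, limma adjusted p = 0.951; 95% interval −0.23 to 0.28).

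**Figure D2:**
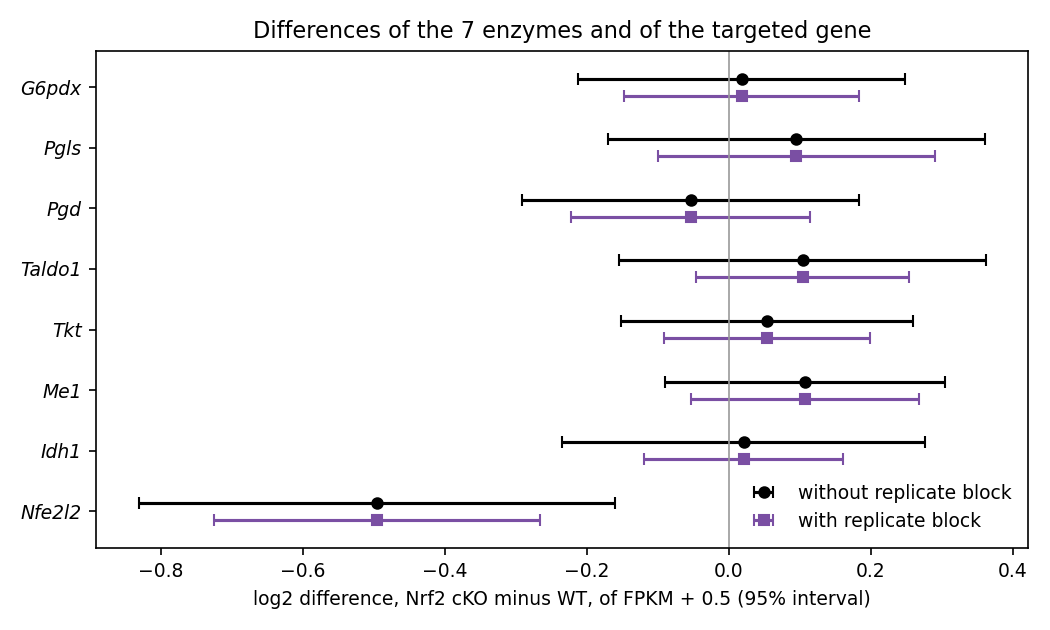
Log2 difference of FPKM + 0.5, cKO minus WT (x axis), of the 7 members and Nfe2l2, with 95% intervals from limma without (black circles) and with the replicate block (purple squares). The intervals of all 7 members include 0 in both fits, and the interval of Nfe2l2 lies below 0 in both.

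Over all 7 members, the intervals reached from −18.3% (Pgd) to 28.5% (Taldo1) without the block, and from −14.3% (Pgd) to 22.3% (Pgls) with it. These intervals are not adjusted for the number of members. The 7 members together summed to 408 ± 40.6 FPKM over the WT libraries and 423 ± 20.8 over the cKO libraries (SD, n = 4 each), with library values of 366 to 453 and 396 to 443. As a share of the summed FPKM of each library, that was 0.0890% to 0.105% in WT and 0.0955% to 0.0991% in cKO.

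Within same-numbered libraries the differences did not point one way. In pair 1 all 7 members were higher in cKO, by a median of 0.16 on the log2 scale, where 51.7% of all genes were higher. In pair 3, 5 members were higher (median 0.029), and in pair 4, 4 were higher (median 0.034). In pair 5 only Me1 was higher and 6 members were lower (median −0.049), where 50.4% of all genes were higher. None of the 7 members had the same direction in all 4 pairs, which 36.2% of all genes did (16.7% higher and 19.5% lower). The largest pair differences were 0.39 for Pgls in pair 1 and −0.24 for Pgd in pair 5. Whether the pairs differ from each other was not tested.

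**Figure D3:**
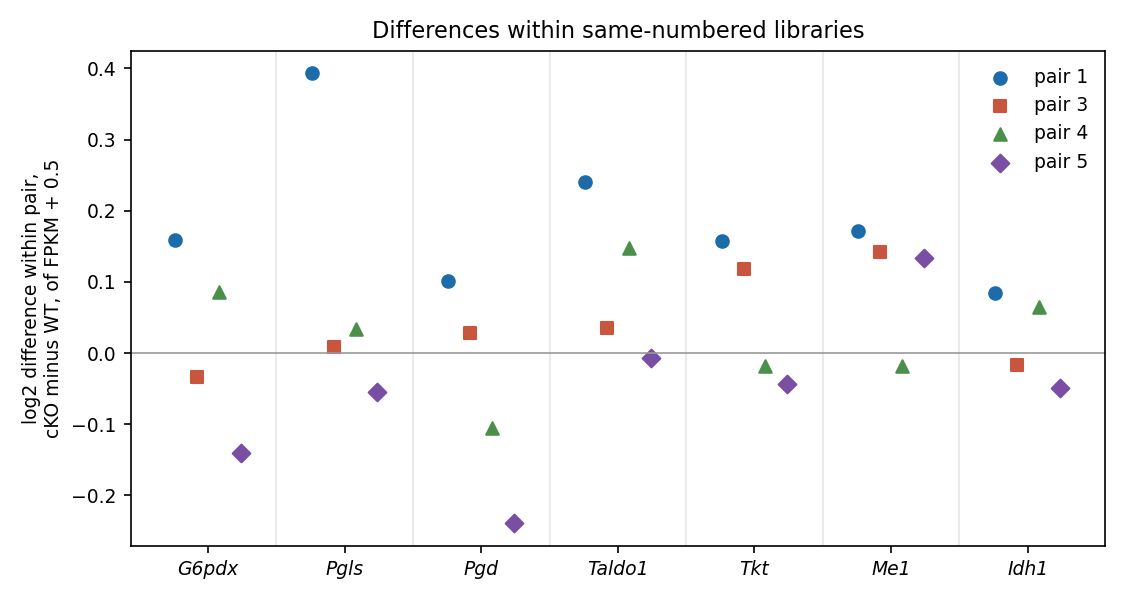
Log2 difference of FPKM + 0.5 within each same-numbered pair, cKO minus WT (y axis), for each member (x axis), with 1 marker shape and colour per pair. All 7 circles of pair 1 lie above 0, and 6 of the 7 diamonds of pair 5 lie below 0.

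FPKM is scaled to length, so levels can be compared between genes. In order of the mean over 8 libraries the members were Taldo1 (127 FPKM), Tkt (102), Pgd (51.8), Pgls (42.6), Idh1 (40.8), G6pdx (32.1) and Me1 (18.8). Each gene in this order exceeded the next in 8 of 8 libraries, except Pgls and Idh1. Pgls exceeded Idh1 in 5 of 8, with a ratio between 0.909 and 1.23, so these neighbours did not differ beyond their spread. Among WT means of all genes, Taldo1 ranked number 553 and Tkt number 732 from the top, while G6pdx ranked 3252 and Me1 5515. G6pdx, the entry enzyme, was the least abundant of the 5 pentose pathway members in every library.

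Other genes with a similar reaction, chosen for that and not for their values, placed these levels in context. H6pd, which carries out the reaction of G6pdx inside the endoplasmic reticulum, averaged 2.25 ± 0.519 FPKM over the WT libraries and 1.97 ± 0.389 over the cKO libraries (SD, n = 4 each). G6pdx exceeded it by 11.1-fold to 20.8-fold in the 8 libraries. Idh2, the mitochondrial NADP-linked enzyme, was at 39.9 ± 4.83 and 37.2 ± 1.26 FPKM, and the ratio of Idh1 to Idh2 lay between 0.879 and 1.21. The mitochondrial malic enzymes Me2 (10.1 ± 1.40 and 11.8 ± 1.99 FPKM) and Me3 (15.1 ± 2.56 and 12.9 ± 2.44) were below Me1 in 8 of 8 libraries. None of these 4 passed the threshold in either fit, and the smallest limma adjusted p was 0.201, for Me2 with the block.

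The members varied little from library to library. The SD within groups on the log2 scale was 0.086 for Me1 to 0.17 for Pgls, with a median of 0.15. The median was 0.20 for all genes and 0.17 for the 4963 genes with a WT mean between those of Me1 and Taldo1. In WT the coefficient of variation ran from 6.37% (Me1) to 15.1% (Pgls). In cKO it ran from 4.19% (Tkt) to 10.5% (Taldo1). The difference in this spread between WT and cKO was not tested and was not set beside that of all genes.

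Among the 21 pairs of members, Pearson's r over the 8 libraries was positive in 20, with a median of 0.55. None passed the threshold after Benjamini-Hochberg adjustment over the 21. For Pgls and Tkt, r was 0.85 (exact permutation p = 0.0132, adjusted 0.130) and Spearman's rho was 0.83 (exact permutation p = 0.0154, adjusted 0.108). Without WT 1 and WT 3, the libraries farthest from the median of Pgls, r was 0.29, so that relation rests on them. For G6pdx and Taldo1, r was 0.84 (exact permutation p = 0.00846, adjusted 0.130), rho was 0.90 (exact permutation p = 0.00456, adjusted 0.0760), and r without WT 5 and cKO 5 was 0.89. Me1 and Idh1 were the pair with a negative r, −0.37 (exact permutation p = 0.370, adjusted 0.528), with rho −0.50 (exact permutation p = 0.216, adjusted 0.413) and r 0.18 without WT 3 and cKO 1. The values of a library share its scaling, so these relations are not independent of it.

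The genes with the most similar profile over the 8 libraries are given as a description, by the highest Pearson's r in the table. They were H1fx, Alg2 and Rab8a for G6pdx (r 0.97 to 0.98), 2010204K13Rik, Gnb2 and Mrps16 for Pgls (0.98 each), and Zbtb8a, Hpca and Pdhx for Pgd (0.96 to 0.99). For Taldo1 they were Atp5g3, Eif3f and Mrpl2 (0.99 each), and for Tkt they were Selenbp1, Sept2 and Isoc1 (0.98 each). Naa60, Mrpl55 and Mospd1 followed Me1 (0.97 each), and Apoc1, Zfp524 and Fads2 followed Idh1 (0.94 to 0.98). None of these 21 genes is another member. None passed the threshold in limma, without or with the block. That outcome was largely set by choosing genes for likeness to members whose differences lay near 0, and without the block 0% of all genes passed. With 12339 genes and 8 libraries, values of r this high say little about any 1 gene.

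Around the members, the hexokinase Hk2 rose and Pfkfb2 fell in the fit with the block. The surrounding genes came from 8 lists of 110 genes, of which 101 were measured. Without the block 0 of them passed in limma. With the block 3 rose and 3 fell (5.88%, beside 10.6% of all genes, 2.99% higher and 7.59% lower), and their median difference was 0.042, beside 0.0036.

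**Figure D4:**
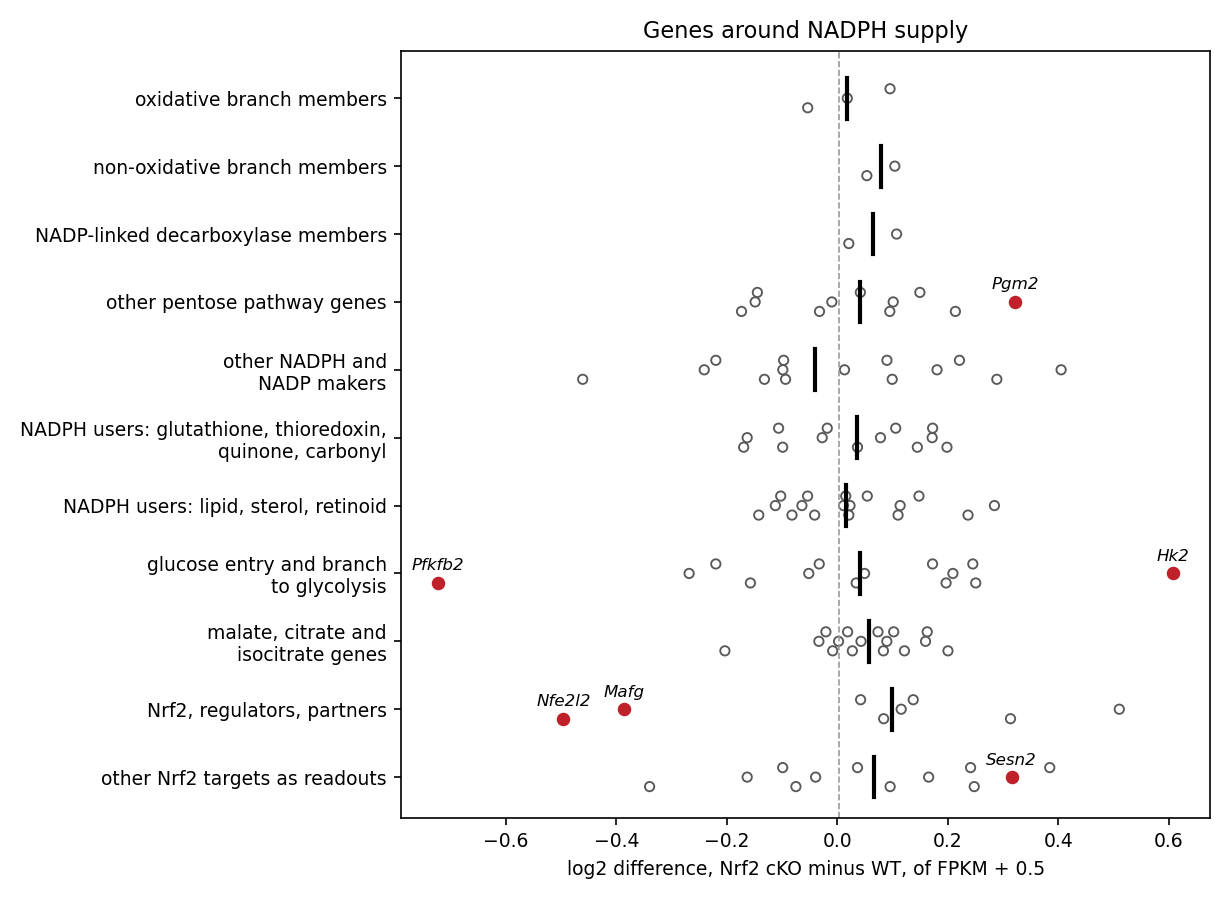
Log2 difference of FPKM + 0.5, cKO minus WT (x axis), of each measured gene in the lists around NADPH supply (rows), with black bars for list medians and a dashed line for the median of all genes. Red points with names passed the threshold with the replicate block. Pgm2, a phosphoglucomutase, is placed by its label among the other pentose pathway genes. The members in the top 3 rows lie close to 0, while Hk2 and Pfkfb2 are the outermost points.

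Of 16 genes of glucose entry and the branch to glycolysis, 14 were measured, with a median difference of 0.042. With the block Hk2 rose, Pfkfb2 fell and 12 did not pass. Hk2, a hexokinase that makes glucose 6-phosphate, the substrate of G6pdx, was at 18.3, 19.8, 18.0 and 15.1 FPKM in WT 1, 3, 4 and 5, and at 25.02, 27.4, 25.7 and 31.5 in cKO 1, 3, 4 and 5. The groups did not overlap (difference 0.61, limma adjusted p = 0.0141 with the block and 0.291 without it), and without 1 pair the adjusted p with the block was 0.0214 to 0.0468. Pfkfb2, which sets the level of fructose 2,6-bisphosphate and so the flow through phosphofructokinase, was at 60.7, 77.0, 36.7 and 31.9 FPKM in WT and at 32.6, 49.6, 19.97 and 22.3 in cKO, in the order of replicates 1, 3, 4 and 5. The groups overlapped, but each cKO library was below the WT library of its number (difference −0.72, limma adjusted p = 0.00301 with the block, 0.474 without it, and 0.0110 to 0.0213 without 1 pair). Slc2a3, a glucose transporter with the third smallest p of the list without the block, was at 22.2 ± 3.77 and 26.2 ± 2.31 FPKM (SD, n = 4 each; limma adjusted p = 0.173 with the block).

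Of 15 genes listed as other pentose pathway genes, 11 were measured, with a median difference of 0.042. In the fit with the block, 1 passed as higher, 0 as lower, and 10 stayed above the threshold, beside 2.99% of all genes higher and 7.59% lower. The 1 was the gene labelled Pgm2 in the table (ENSMUSG00000025791), which GENCODE release 21 calls Pgm1. That is a phosphoglucomutase that links glucose 1-phosphate to glucose 6-phosphate, which is not a step of the pentose pathway. It entered the list by its label, so no measured pentose pathway gene of the list passed. It was at 67.1, 65.7, 80.2 and 67.1 FPKM in WT 1, 3, 4 and 5, and at 81.9, 93.7, 91.6 and 82.6 in cKO 1, 3, 4 and 5, without overlap. The difference was 0.32 (limma adjusted p = 0.0271 with the block, 0.453 without it). The call was lost without any 1 pair (adjusted p 0.0570 to 0.0963) and with the block and quantile scaling (0.0607). Dera, which splits deoxyribose phosphate, was at 10.2 ± 1.81 and 8.89 ± 0.699 FPKM, and Idnk, a gluconate kinase that feeds Pgd, at 16.3 ± 3.36 and 19.0 ± 3.68 (SD, n = 4 each). Neither passed in limma (adjusted p = 0.283 and 0.110 with the block).

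None of the 13 genes listed for making NADPH or NADP passed in limma, and their median difference was −0.040. The smallest p belonged to Mthfd1l, listed as a gene of mitochondrial folate metabolism and not itself a maker of NADPH (7.21 ± 0.762 and 8.94 ± 1.17 FPKM, difference 0.29, limma adjusted p = 0.0750 with the block). Glud1, glutamate dehydrogenase, was at 92.4 ± 13.6 and 77.7 ± 6.83 FPKM (−0.24, limma adjusted p = 0.0766 with the block). At an unadjusted p under 0.05 there was 1 gene of this list without the block and 2 with it, beside 10.6% and 28.4% of all genes. Nnt, the mitochondrial transhydrogenase, had 2 rows for overlapping annotated genes, and reads may be split between them. The row ENSMUSG00000025453 was at 0.885, 1.51, 4.30 and 2.92 FPKM in WT 1, 3, 4 and 5, and at 2.33, 0.678, 0.650 and 2.82 in cKO 1, 3, 4 and 5. The row ENSMUSG00000116207 was at 4.63, 6.38, 2.99 and 3.85 FPKM and at 3.59, 5.30, 6.10 and 1.87 in the same order. These values spread widely inside both groups. They were singled out after they were seen.

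The genes that use NADPH did not pass either. In the list of glutathione, thioredoxin, quinone and carbonyl reduction, 13 of 14 were measured, with a median difference of 0.036 and 0 past the threshold in either limma fit (0 at an unadjusted p under 0.05 without the block and 2 with it). Of all genes, 10.6% had such an unadjusted p without the block and 28.4% with it. Cryz, a quinone reductase, was at 43.5 ± 8.33 and 49.5 ± 3.82 FPKM (SD, n = 4 each; limma adjusted p = 0.124 with the block). The carbonyl reductase Cbr1 (0.17, limma adjusted p = 0.119 with the block) and the aldehyde reductase Akr1a1 (0.14, adjusted p = 0.237 with the block) had the next smallest p without the block. In the list of lipid, sterol and retinoid reduction, 17 of 17 were measured, with a median of 0.015 and 0 past the threshold (1 at an unadjusted p under 0.05 in either limma fit). Rdh11, a retinal reductase, was at 15.4 ± 1.16 and 18.2 ± 1.31 FPKM without overlap between the groups (0.24, limma adjusted p = 0.128 with the block). Hsd17b7, of cholesterol synthesis, differed by 0.28 and Srd5a3, a polyprenol reductase, by 0.11 (limma adjusted p = 0.289 and 0.399 with the block).

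The malate, citrate and isocitrate genes, which feed Me1 and Idh1, were all measured (16 of 16), with a median difference of 0.058 and 0 past the threshold in either limma fit. At an unadjusted p under 0.05 there were 0 without the block and 3 with it, beside 10.6% and 28.4% of all genes. Mdh1, the cytosolic malate dehydrogenase, was at 181 ± 7.87 and 209 ± 21.4 FPKM (SD, n = 4 each; difference 0.20, limma adjusted p = 0.0891 with the block). Got1 and Mdh2, of the malate-aspartate shuttle, both differed by 0.16 (limma adjusted p = 0.220 and 0.153 with the block).

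Genes of Nrf2 itself and other readouts of it are given for the comparison with the members. With the block, 2.99% of all genes passed as higher and 7.59% as lower. Of 8 Nrf2 regulator and partner genes, 2 fell with the block, Nfe2l2 and its partner Mafg (33.7, 39.3, 24.3 and 20.6 FPKM in WT, and 21.1, 30.8, 19.4 and 17.6 in cKO, for replicates 1, 3, 4 and 5; limma adjusted p = 0.0296). Each cKO library was below its WT partner for both genes. The call of Nfe2l2 was lost without pair 1, 4 or 5 (limma adjusted p = 0.0785, 0.0846 and 0.0634), and that of Mafg without pair 1, 3 or 4 (0.0953, 0.0818 and 0.0784). The other small Maf genes, Maff (0.51) and Mafk (0.31), did not pass (limma adjusted p = 0.186 and 0.113 with the block). Of 14 other known Nrf2 targets, 12 were measured, with a median difference of 0.066. In the fit with the block, 1 passed as higher, 0 as lower, and 11 stayed above the threshold. The 1 was Sesn2, a stress-induced sestrin, at 10.5 ± 0.726 and 13.2 ± 1.08 FPKM (limma adjusted p = 0.0451 with the block, and 0.0778 to 0.157 without 1 pair, and 0.0695 with the block and equal-sum scaling, so the call was lost in each of these). Abcc1, an exporter of glutathione conjugates, differed by −0.34, and Srxn1, which repairs peroxiredoxins, by 0.24 (limma adjusted p = 0.0811 and 0.169 with the block).

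Of the markers of other cells, 0 passed in limma without the block, as for the members. The following counts come from the fit with the block, in which 2.99% of all genes passed as higher and 7.59% as lower. Of 11 bipolar cell markers, 10 had a higher mean in cKO and 5 passed as higher, with summed levels of 1857 to 2331 FPKM in WT and 2269 to 2945 in cKO. Of 7 measured ganglion cell markers, 6 had a lower mean in cKO and 4 passed as lower (71.0 to 96.9 and 52.4 to 73.8 FPKM). Of 7 measured amacrine and horizontal cell markers, 6 had a lower mean and 3 passed as lower (45.1 to 68.5 and 34.6 to 50.3 FPKM). The 4 measured genes of the astrocyte list all had a higher mean and 2 passed as higher (452 to 795 and 625 to 911 FPKM). That list holds glial genes such as Gfap that Müller cells can also express, and its Pax2 was not measured. It therefore does not tell astrocyte RNA from Müller cell RNA. Of 8 measured cone markers, 5 had a lower mean, 4 passed as lower and 1 as higher, and the summed levels overlapped (92.4 to 124 and 103 to 119 FPKM). Of 11 vessel and pericyte markers 3 were measured, and 1 passed as higher (35.97 to 43.0 and 52.5 to 64.5 FPKM). The part of these cells in the values of the members was not tested.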

How the data were processed

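The 8 libraries were deposited as columns of 1 table in FPKM, that is, fragments counted per transcript length and per library size. The unit comes from the name of the table. STAR and edgeR, and the builds GRCm38 and mm10, are named with no role in the submitters' processing notes. The counting tool, annotation, strand setting and gene filter are not given in the sources used here. Per the labels' protocols, the libraries were directional and made from poly(A)-selected RNA. The number of fragments per library is unknown, so no counting interval was computed. The lowest mean of any gene was 2.00 FPKM.

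Values were taken as log2(FPKM + 0.5), so differences of low genes are understated. The groups were compared over 12339 genes with limma 3.58.1 in R 4.3.3 (eBayes with a trend, two-sided), with Benjamini-Hochberg adjustment and a threshold of 0.05, and intervals are 95%. The script was tested on simulated data with independent noise in each library and no pair effect. It was thus not tested on paired libraries. A second fit had the replicate number as a block. After group means were removed, same-numbered libraries correlated across genes by 0.261 to 0.591 and others by −0.479 to 0.211. The rule took the numbers as paired if each same-numbered r was over 0.1, which was so. Among libraries of unlike number, WT 5 with cKO 4 (0.211) and WT 1 with cKO 3 (0.180) were over 0.1 too. These lie near the value of WT 1 with cKO 1 (0.261). The pairing comes from these data and the shared numbers in the labels. Exact permutation tests went through every assignment or pairing in Python 3.11.15 with numpy 2.4.6, and ranks came from scipy 1.17.1. Positions are from GENCODE mouse release 21 (GRCm38), in which 12327 of 12339 gene IDs were found.

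The members, lists and tests were chosen with earlier results of these data known. Named genes were the 7 members, Nfe2l2, up to 3 genes with the smallest p of each list, and every list gene past the threshold in either fit. For each member the 3 genes with the highest r were added, with Xist, and Glul and Rlbp1 as markers. H6pd, Idh2 and Me3 were named outside this rule for their reactions, and the Nnt rows after their values were seen. Some listed genes belong to more than 1 list. Other settings tried were pseudocounts of 0.1 and 1, a minimum mean of 5 FPKM, 3 scalings, the block, weights per library, robust eBayes or eBayes with no trend, 0.1 as threshold, Xist as a covariate and leaving out libraries or pairs.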

Additional observations from a re-analysis of the deposited data

Results flagged for a closer look

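In 64 groups of 4 libraries, those of the 32 genes named from the lists or as members, 4 held a library far from the other 3 by Dixon's criterion at the 95% level, which divides the gap to the nearest library by the range of the group. Chance flags about 1 in 20 groups. G6pdx was at 37.8 FPKM in WT 5, where the other WT libraries were at 29.7 to 30.4. Taldo1 was at 111 FPKM in cKO 3, where the other cKO libraries were at 135 to 140. Idnk was at 13.5 FPKM in the same library, cKO 3, against 20.4 to 21.2 in the others. The gene labelled Pgm2 was at 80.2 FPKM in WT 4, against 65.7 to 67.1 in the other WT libraries.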

How the results depend on the processing

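In 28 other settings, 0 of the 7 members passed the threshold in any, and the smallest limma adjusted p was 0.211. Their differences stayed between −0.14 and 0.19 on the log2 scale, and signs turned in 29 of 196 cases, never for Me1. These cases include settings that cannot change a difference, such as the block alone, the eBayes variants, the minimum mean and the threshold. Equal-sum (TPM) scaling gave −0.015 for G6pdx and −0.012 for Idh1, with or without the block, and quantile scaling gave −0.0079 for Tkt, with or without it. Library weights gave 0.022 for Pgd and −0.012 for Idh1. With Xist as a covariate G6pdx was at −0.064, Pgls at −0.0069, Taldo1 at −0.038 and Idh1 at −0.045, and in the 6 libraries with Xist alone, chosen after seeing the data, G6pdx was at −0.028 and Idh1 at −0.040. Nfe2l2 was at −0.36 with the covariate and at −0.39 in the 6 libraries (limma adjusted p = 0.9999 and 0.9998). In both settings 0 genes of the surrounding lists passed. The cause of these shifts was not tested. The whole table held 1 gene past the threshold in each of these last 2 settings and with library weights.

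With the replicate block the members kept their values and none changed its call. The block gave 1305 genes of the whole table, 6 of them in the surrounding lists, against 0 and 0, and −0.50 for Nfe2l2, then past the threshold. Of the lists, Nfe2l2, Mafg, Sesn2, Pgm2, Hk2 and Pfkfb2 changed their call. Without pair 1 the block gave −0.029 for G6pdx, −0.0040 for Pgls and −0.00047 for Idh1, with 402 genes and 3 in the lists. Without pair 3 it gave 606 and 3, and Nfe2l2 at −0.60. Without pair 4 it gave 524 and 2, and G6pdx at −0.0048. Without pair 5 it gave 821 and 3, and Pgd at 0.0081. With the block, median-of-ratios, TPM and quantile scaling, added after seeing the data, gave 1300, 1337 and 1064 genes, 6, 6 and 7 in the lists, and Nfe2l2 at −0.50, −0.54 and −0.46.

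Leaving out 1 library moved G6pdx between −0.014 and 0.0999, Pgls between −0.0049 and 0.15, Pgd between −0.11 and 0.0099, Taldo1 between 0.048 and 0.18, Tkt between −0.0039 and 0.098, Me1 between 0.064 and 0.14, Idh1 between −0.067 and 0.088 and Nfe2l2 between −0.59 and −0.38, with 0 genes past the threshold each time. The unadjusted p was under 0.05 in 1310 genes, and in 293 to 3503 over all settings.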
